A study of Mus musculus with 6 samples.

Results

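Cells build cholesterol and fatty acids from the same small precursor, and 31 genes of these routes were followed here in Nac1 null mouse induced pluripotent stem (iPS) cells during rescue with human NAC1 (hNAC1). The genes form a listed set. They encode the enzymes of sterol synthesis from acetyl-CoA thiolase to the last ring reductase, the proteins that sense sterols, a sterol carrier, and the main enzymes of fatty acid synthesis and desaturation. Of the 31 genes, 29 had a probe on the bead array, and 26 were measured, out of 12030 genes tested in all. A gene counted as measured when a probe of it was detected on both arrays of at least 1 day, with a detection p-value under 0.05 on each. The measured genes comprise 5 of the thiolase and mevalonate steps, 10 of the squalene and sterol ring steps, 5 of sterol sensing and transport and 6 of fatty acid synthesis. Idi1, Srebf1 and Acaca have a probe but were not measured. Idi1 was detected on 1 array, the better probe of Srebf1 on 2 arrays and Acaca on 0. Hmgcs1 and Fdft1 are not analysed here.

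The cells came from a pair of Nac1 null iPS lines, clone 5 and clone 7, which the labels describe as made in house. Each clone was sampled on days 0, 2 and 5 of rescue with hNAC1, with 1 array per clone and day, 2 arrays per day and 6 arrays in all. Every group is null for mouse Nac1, and each line is 1 clone, so a difference between the lines can belong to the clone. The sources used here do not say how hNAC1 was delivered or expressed, and cells kept without it over the same days are not analysed here. An effect of hNAC1 and an effect of time in culture cannot be told apart. The arrays of a day are of different clones and no clone was repeated on a day, so the p-values between days rest on the spread between the changes of the clones.

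Sterol synthesis begins with acetyl-CoA, passes through mevalonate and the isoprenoid farnesyl diphosphate, and continues through squalene and lanosterol to cholesterol. When sterols in the endoplasmic reticulum run low, SCAP carries the SREBP transcription factors, encoded by Srebf1 and Srebf2, to the Golgi, where they are cut and released to the nucleus. INSIG proteins hold SCAP back when sterols are plentiful. SREBP2 is known mainly for the sterol genes and SREBP1 for the fatty acid genes, and dividing stem cells need both products for new membrane.

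All 6 arrays lay on the same bead chip, and 37.0% to 40.1% of 45281 probes were detected on an array. Of the measured genes, 24 were detected on all 6 arrays, Sc5d on 5 and Fasn on 3. Levels are log2 values of 1 probe per gene after background correction and quantile normalisation, so levels of different genes cannot be set against each other. All 11 pluripotent stem cell markers looked at were detected on all 6 arrays. Of 10 fibroblast markers, which feeder cells would bring in, 5 were detected on 0 arrays: Col1a1, Col1a2, Col3a1, Lum and Postn. Thy1 and Twist1 were measured, while Dcn, Pdgfra and Pdgfrb were detected, but not on both arrays of a day. Of 7 primitive endoderm markers, Gata6 alone was measured. It was detected on 0 of the day 0 arrays, where it read 4.46 and 4.36, and it rose to 5.63 and 5.85 on day 5 (adjusted p = 0.0169), a call lost in 4 of 15 alternatives, among them without the day 0 array of clone 7. In bulk samples, fewer cells of a type and less RNA per cell cannot be told apart, here and in every value below.

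The plot of levels by array shows each measured gene around its own mean. The array of clone 5 on day 0 held the highest value of 9 of the 26 genes, and that of clone 7 on day 0 the lowest value of 14. The array of clone 7 on day 2 held the lowest value of 8 more. The median deviation of the 26 genes was 0.33 and -0.33 in clone 5 and clone 7 on day 0, -0.02 and -0.25 on day 2, and 0.11 and 0.15 on day 5. These medians keep the sign of each gene. The median absolute difference between the clones was 0.59 on day 0, 0.34 on day 2 and 0.36 on day 5 over the 26 genes, beside 0.21, 0.21 and 0.22 over all genes.

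**Figure D1:**
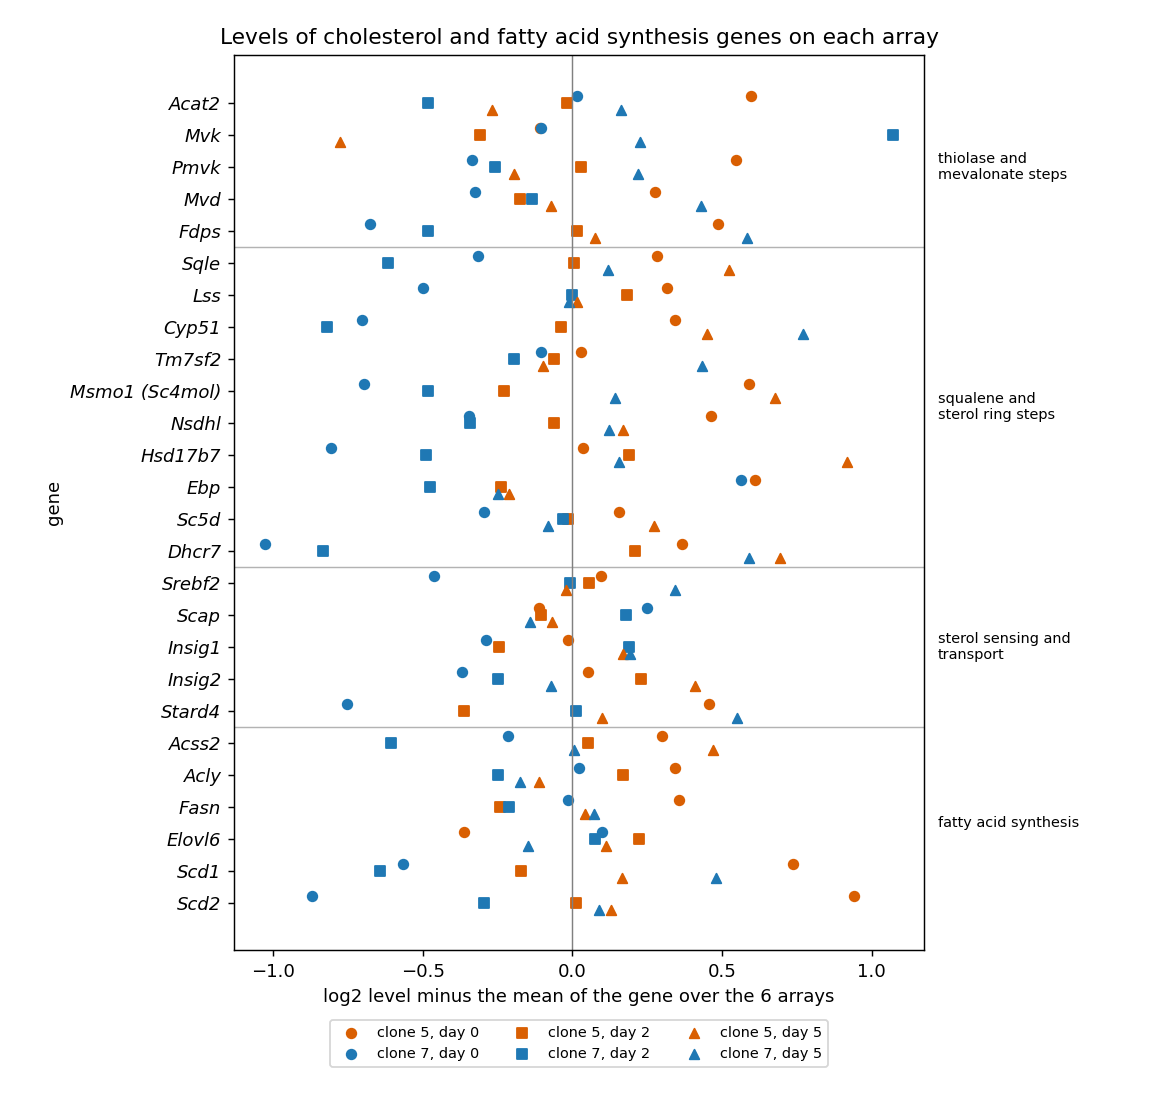
Level of each of the 26 measured genes on each array, as the log2 level minus the mean of the gene over the 6 arrays (x axis), with genes by role on the y axis. Colours are clones and shapes are days, 1 array each. The clone 7 circles (day 0) are the lowest point of 14 genes, and the triangles of day 5 lie closer together than the circles in most rows.

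Day 5 was set against day 0 to see which of these genes differ after the longest rescue. Hsd17b7, which encodes a keto reductase of sterol ring demethylation, rose 1.89-fold, and Ebp, which encodes the sterol isomerase that follows it, fell 1.76-fold. These 2 of 26 genes, or 7.69%, passed an adjusted p of 0.05 in the limma fit with day and clone, against 4.23% of all genes tested. In the higher direction it was 1 gene, with 2.45% of all genes passing, and in the lower direction 1 gene, with 1.78%. The share of the set is near that of all genes and is no result about the set. Of the 26 mean changes, 19 lay above 0, against 50.1% of all genes. The median of the 26 was 0.20 on the log2 scale, beside 0.00 for all genes tested. That median was -0.10 without the day 0 array of clone 7 and -0.06 without its day 5 array, and 0.42 and 0.37 without those of clone 5.

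Hsd17b7 read 8.10, 8.25 and 8.98 on days 0, 2 and 5 in clone 5 and 7.25, 7.57 and 8.22 in clone 7. Its level was highest on day 5 in each clone, and both day 5 arrays lay above both day 0 arrays although clone 7 was lower throughout. The mean log2 change to day 5 was 0.92 ± 0.17 (SE of the fit, 2 arrays per day, adjusted p = 0.0304), with 0.88 in clone 5 and 0.96 in clone 7. A dimmer probe of Hsd17b7, detected on 5 arrays, gave 0.54 ± 0.19 and did not pass (adjusted p = 0.176 with every probe tested).

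Ebp read 8.73, 7.88 and 7.91 on days 0, 2 and 5 in clone 5 and 8.68, 7.64 and 7.87 in clone 7. Both day 0 arrays lay above all 4 later arrays, and the day 2 and day 5 values overlapped. The mean log2 change to day 5 was -0.82 ± 0.17 (SE, adjusted p = 0.0436), and that to day 2 was -0.95 ± 0.17, which did not pass over all genes (adjusted p = 0.179). Neither call is firm. Without clone in the model the adjusted p was 0.261 for Hsd17b7 and 0.0639 for Ebp, and both calls were also lost when any 1 of the 6 arrays was left out, which leaves 1 residual degree of freedom.

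The 250 bases before the start site are shown for these 2 genes and for Insig1 and Srebf2, the sterol sensor and the transcription factor gene whose own promoters are textbook SREBP targets. Hmgcs1, for which no expression value is given, is added because its window holds the sterol element searched for. Sequences are from RefSeq, build GRCm38.p6, written 5′ to 3′ on the strand of the gene. Capitals mark the sterol regulatory element TCACNCCAC, the E-box CACGTG and the NF-Y box CCAAT, each on either strand, so that CCAAT also appears as ATTGG.
Hsd17b7, chr1:169969206-169969455, minus strand: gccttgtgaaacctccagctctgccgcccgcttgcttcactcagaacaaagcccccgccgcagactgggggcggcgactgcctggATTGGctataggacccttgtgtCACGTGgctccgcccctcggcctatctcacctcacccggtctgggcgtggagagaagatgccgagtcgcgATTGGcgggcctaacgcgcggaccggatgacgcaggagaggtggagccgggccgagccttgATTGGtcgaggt
Ebp, chrX:8193513-8193762, minus strand: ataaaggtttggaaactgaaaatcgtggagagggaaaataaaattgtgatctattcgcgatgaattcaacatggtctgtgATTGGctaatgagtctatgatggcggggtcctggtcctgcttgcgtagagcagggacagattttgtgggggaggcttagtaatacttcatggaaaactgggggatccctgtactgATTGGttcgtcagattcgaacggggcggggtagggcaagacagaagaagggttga
Insig1, chr5:28071162-28071411, plus strand: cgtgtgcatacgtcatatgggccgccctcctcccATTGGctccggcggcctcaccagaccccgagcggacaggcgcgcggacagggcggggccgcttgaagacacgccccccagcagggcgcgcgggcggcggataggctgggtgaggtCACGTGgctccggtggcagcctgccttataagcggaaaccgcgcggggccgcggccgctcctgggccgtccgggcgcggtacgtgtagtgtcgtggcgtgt
Srebf2, chr15:82147019-82147268, plus strand: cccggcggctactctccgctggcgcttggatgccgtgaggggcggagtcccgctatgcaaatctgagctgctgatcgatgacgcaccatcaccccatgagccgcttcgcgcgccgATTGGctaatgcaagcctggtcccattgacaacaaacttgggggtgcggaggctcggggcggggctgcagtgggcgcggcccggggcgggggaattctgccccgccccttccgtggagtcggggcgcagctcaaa
Hmgcs1, chr13:119690101-119690350, plus strand: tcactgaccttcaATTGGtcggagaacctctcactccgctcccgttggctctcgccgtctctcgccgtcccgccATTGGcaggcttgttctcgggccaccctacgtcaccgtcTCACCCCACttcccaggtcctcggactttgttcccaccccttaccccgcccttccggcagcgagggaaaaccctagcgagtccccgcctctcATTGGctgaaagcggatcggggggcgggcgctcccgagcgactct

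Hsd17b7 holds an E-box and 3 NF-Y boxes in this window, Ebp 2 NF-Y boxes, Insig1 an E-box and an NF-Y box, and Srebf2 an NF-Y box. Of the 31 listed genes, 25 matched the promoter table, with 33 promoters, and 21 of the measured genes, with 27. The measured genes without an entry are Fdps, Sqle, Stard4, Scd1 and Scd2, so the shares below do not cover them. The NF-Y box was in 63.0% of those 27 promoters and in 33.8% of all 32851 promoters in the table. The E-box was in 5 of the 27, or 18.5%, beside 6.02% of all promoters, in Dhcr7, Hsd17b7, Insig1, Sc5d and Scap. The strict sterol element was in 1.05% of all promoters, in 0 of the 27 and, among the listed genes, in Hmgcs1 alone. A match describes letters in the window and shows no bound factor, and a missing match says only that these letters are not in it.

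**Figure D2:**
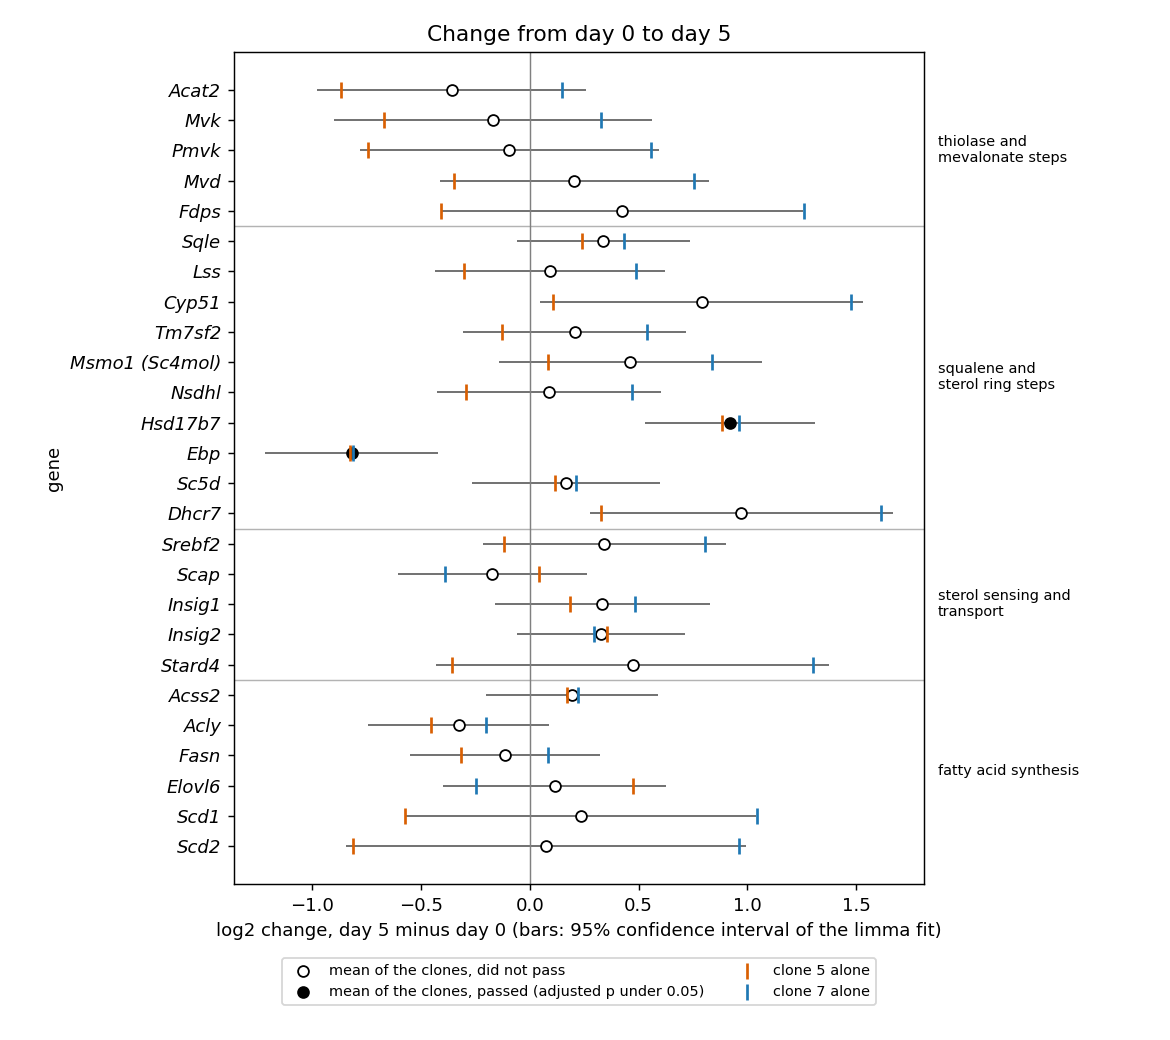
Change from day 0 to day 5 on the log2 scale (x axis) for the 26 measured genes by role (y axis). Circles are means of the clones with the 95% confidence interval of the limma fit, filled where the adjusted p was under 0.05, and ticks are single clones. Hsd17b7 at 0.92 and Ebp at -0.82 are filled and their ticks nearly coincide, while the ticks of genes such as Fdps, Stard4 and Scd2 lie on opposite sides of 0.

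The early steps run from acetyl-CoA to farnesyl diphosphate. Fdps, which encodes farnesyl diphosphate synthase, read 11.08, 10.60 and 10.67 on days 0, 2 and 5 in clone 5 and 9.91, 10.11 and 11.17 in clone 7. Clone 5 was highest before the rescue and clone 7 after it, so the days overlap. Its mean log2 change to day 5 was 0.42 ± 0.35 (SE, adjusted p = 0.545). A second, dimmer probe of Fdps gave -0.22 ± 0.22, and its clone difference on day 0 was -0.74 beside -1.16 on the brighter probe.

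Mvk, the mevalonate kinase gene, read 5.47, 5.27 and 4.80 in clone 5 and 5.48, 6.65 and 5.80 in clone 7 in the same day order. Clone 7 stood out on day 2, and its level was not below that of clone 5 on any day, unlike the neighbouring steps. Pmvk, which encodes the kinase of the next step, read 8.03, 7.51 and 7.28 in clone 5 and 7.14, 7.22 and 7.70 in clone 7, so the order of the clones turned around between day 0 and day 5. Mvd, the decarboxylase gene after it, and Acat2, the cytosolic thiolase gene at the start, showed the same turn, with clone 7 minus clone 5 at -0.60 and -0.58 on day 0 and at 0.50 and 0.43 on day 5. All 5 genes of these steps were lower on day 5 than on day 0 in clone 5, with log2 changes from -0.87 to -0.35. All 5 were higher in clone 7, from 0.15 to 1.26. None passed between days (adjusted p from 0.487 to 0.892 for day 5 against day 0).

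The ring steps turn squalene into cholesterol. Sqle, which encodes the rate-controlling squalene epoxidase, read 10.09, 9.81 and 10.33 on days 0, 2 and 5 in clone 5 and 9.49, 9.19 and 9.92 in clone 7. Each clone was lowest on day 2 and highest on day 5, with clone 7 below clone 5 each day. Its log2 change from day 2 to day 5 was 0.63 ± 0.17 (SE, adjusted p = 0.123). A dimmer probe of Sqle, detected on all 6 arrays, read 8.01, 7.44 and 7.99 in clone 5 and 7.05, 6.41 and 7.18 in clone 7. It was also lowest on day 2 in each clone, but in clone 5 day 5 was not above day 0. Its day 5 difference of clone 7 minus clone 5 was -0.81, beside -0.41 on the brighter probe.

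Cyp51, the lanosterol demethylase gene, read 7.78, 7.40 and 7.88 in clone 5 and 6.73, 6.62 and 8.21 in clone 7. Dhcr7, which encodes the last reductase before cholesterol, read 6.75, 6.59 and 7.08 in clone 5 and 5.36, 5.55 and 6.97 in clone 7. Day 5 lay above all other arrays for both genes, and most of that came from clone 7, whose log2 changes from day 0 to day 5 were 1.47 and 1.62 against 0.11 and 0.33 in clone 5. The mean changes were 0.79 ± 0.32 for Cyp51 (SE, adjusted p = 0.208) and 0.97 ± 0.30 for Dhcr7 (adjusted p = 0.120). Without the day 5 array of clone 5 they were 1.41 and 1.53 and both passed (adjusted p = 0.0135 and 0.0106).

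Msmo1, listed as Sc4mol, encodes the sterol methyl oxidase. It read 7.31, 6.49 and 7.39 in clone 5 and 6.02, 6.24 and 6.86 in clone 7, and the clones stood farthest apart on day 0. Lss, which encodes the cyclase that makes lanosterol, read 8.26, 8.13 and 7.96 in clone 5 and 7.44, 7.94 and 7.93 in clone 7. The clones of Lss differed by 0.82 on day 0 and by 0.03 on day 5, again with clone 7 lower.

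Nsdhl, the sterol dehydrogenase gene, differed by -0.81 between clone 7 and clone 5 on day 0 and by -0.05 on day 5. Its other 3 probes gave -1.09, -0.66 and -0.23 on day 0. Tm7sf2, a sterol reductase gene, was 0.13 lower in clone 7 on day 0 and 0.53 higher on day 5. Sc5d, the sterol desaturase gene, read 5.00, 4.83 and 5.12 in clone 5 and 4.55, 4.81 and 4.77 in clone 7, so its days overlap.

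Sensors and carriers come next. Insig1 read 6.02, 5.79 and 6.20 in clone 5 and 5.74, 6.23 and 6.23 in clone 7, and both day 5 arrays lay a little above both day 0 arrays (log2 change to day 5 0.33 ± 0.21, SE, adjusted p = 0.417). Its 2 dimmer probes differed from the first, with clone 7 minus clone 5 on day 0 at -0.83 and -1.09 beside -0.27. On these probes the log2 change to day 5 was -0.20 and -0.19 in clone 5 and 0.70 and 1.16 in clone 7. Their day 0 and day 5 values overlap. Insig2 read 8.15, 8.33 and 8.51 in clone 5 and 7.73, 7.85 and 8.03 in clone 7, a steady gap between the clones of 0.42 to 0.48.

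Srebf2 read 7.84, 7.80 and 7.72 in clone 5 and 7.28, 7.74 and 8.09 in clone 7. Clone 5 stayed level while clone 7 was higher on each later day, and a second probe gave the same order in clone 7, at 6.23, 6.71 and 7.27. Scap, the sterol sensor gene, went the other way to most of the set, with clone 7 0.36 higher on day 0 and 0.07 lower on day 5. It read 6.39, 6.39 and 6.43 in clone 5 and 6.75, 6.68 and 6.36 in clone 7. Stard4, the sterol carrier gene, read 7.57, 6.76 and 7.22 in clone 5 and 6.37, 7.13 and 7.67 in clone 7, with its lowest and second highest values both on day 0. Its mean log2 change to day 5 of 0.47 ± 0.38 (SE, adjusted p = 0.535) became 1.28 and passed without the day 0 array of clone 5 (adjusted p = 0.0377).

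Among the fatty acid synthesis genes, the clones differed most on day 0 in Scd2 and Scd1. Scd1 and Scd2 encode stearoyl-CoA desaturases, which place the first double bond in saturated fatty acids. Scd2 read 7.84, 6.91 and 7.03 in clone 5 and 6.03, 6.60 and 6.99 in clone 7, and Scd1 read 9.69, 8.78 and 9.12 in clone 5 and 8.39, 8.31 and 9.43 in clone 7. In clone 5 both were highest on day 0, in clone 7 both were highest on day 5. The day means hide this, with log2 changes to day 5 of 0.07 ± 0.39 for Scd2 (SE, adjusted p = 0.938) and 0.24 ± 0.34 for Scd1 (adjusted p = 0.747).

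Acss2, which encodes the acetyl-CoA synthetase of the cytosol, read 7.68, 7.43 and 7.85 in clone 5 and 7.17, 6.78 and 7.39 in clone 7. Like Sqle it was lowest on day 2 in each clone and lower in clone 7 each day. Acly, the ATP citrate lyase gene, read 11.59, 11.42 and 11.14 in clone 5 while clone 7 read 11.27 on day 0 and 11.07 on day 5 with its lowest level on day 2, and both day 5 arrays lay below both day 0 arrays (log2 change -0.33 ± 0.18, SE, adjusted p = 0.342). Fasn, the fatty acid synthase gene, stayed between 4.44 and 5.04 and was detected on 3 arrays, so its changes lie near the background. Elovl6, which encodes an elongase of saturated fatty acids, was 0.46 higher in clone 7 on day 0 and 0.26 lower on day 5, the reverse of Scd1. Scd2 was lower in clone 7 on both of these days, at -1.81 and -0.04.

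The clones differed over most of the set before the rescue, with clone 7 lower, and fewer genes shared that direction on the later days. On day 0, 23 of the 26 genes were lower in clone 7, with a median difference of -0.59 on the log2 scale beside -0.00 for all genes tested. Of these, 13 genes, or 50%, were at least 1.5-fold lower, against 5.77% of all genes, and 0 were at least 1.5-fold higher, against 5.51%. They were led by Scd2 (-1.81), Dhcr7 (-1.39), Scd1 (-1.31), Msmo1 (-1.29), Stard4 (-1.21), Fdps (-1.16) and Cyp51 (-1.05). With 1 array per clone and day there is no test of this difference, and the 1.5-fold limit was chosen after the values were seen.

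On day 2, 20 genes were lower in clone 7 with a median of -0.27, against 47.9% of all genes lower. At least 1.5-fold lower were 5 genes (19.2%), against 5.79% of all genes. On day 5, 14 genes were lower with a median of -0.03, against 48.8% of all genes lower. At least 1.5-fold lower was 1 gene, Hsd17b7, against 5.64% of all genes, and at least 1.5-fold higher was 1 gene, Mvk, against 5.07%. The ring genes were lower in clone 7 in 10 of 10 cases on day 0, 10 of 10 on day 2 and 8 of 10 on day 5. The early genes went from 4 of 5 lower on day 0 to 5 of 5 higher on day 5.

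**Figure D3:**
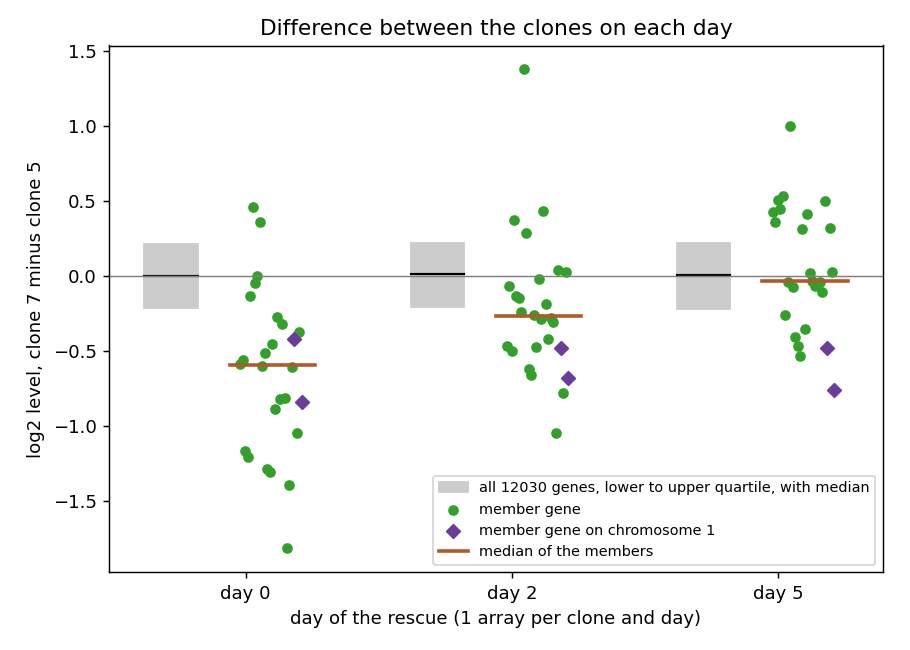
Log2 level in clone 7 minus that in clone 5 (y axis) on days 0, 2 and 5 (x axis). Points are the 26 measured genes, diamonds those on chromosome 1, brown lines their median, and grey boxes the lower to upper quartile of all 12030 genes with the median. The brown line moves from -0.59 on day 0 to -0.27 on day 2 and -0.03 on day 5, while the grey boxes stay around 0.

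Within clones, the changes to day 5 differed. In clone 7, 22 of 26 genes were higher on day 5 than on day 0, against 50.6% of all genes. The median log2 change of the set was 0.48, and 10 genes (38.5%) were at least 1.5-fold higher, against 12.1% of all genes. At least 1.5-fold lower was 1 gene, Ebp, against 11.5%. In clone 5, 15 genes were lower, against 49.6% of all genes, and 11 were higher. These counts became 13 and 13 under median scaling. The ring genes were higher in 6 of 10 cases there. The median change in clone 5 was -0.21, with 1 gene, Hsd17b7, at least 1.5-fold higher, against 9.28% of all genes, and 5 genes (19.2%) at least 1.5-fold lower, against 7.84%. These changes share the day 0 arrays with the day 0 gap and are no separate evidence of it.

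In 9 genes (34.6%), clone 7 was higher and clone 5 lower on day 5 than on day 0, each by at least 0.25 on the log2 scale, against 3.97% of all genes. The reverse held for 0 genes, against 4.7%, but Elovl6 narrowly missed the limit, with 0.476 in clone 5 and -0.246 in clone 7. The 9 genes are Mvk, Pmvk, Mvd, Fdps, Lss, Nsdhl, Stard4, Scd1 and Scd2, from all 4 roles. The limit of 0.25 was also chosen after the values were seen.

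In clone 5 the levels were lower on day 2 than on day 5 in 18 of 26 genes, against 48.7% of all genes. From day 0 to day 2, 22 of 26 genes were lower, against 48.0% of all genes. The median log2 change of the set was -0.26, and 7 genes (26.9%) were at least 1.5-fold lower, against 4.8% of all genes. This change shares the day 0 array of clone 5 with the day 0 gap and is no separate evidence of it. In clone 7 on day 2, 15 genes were higher than on day 0, against 52.5% of all genes, and 11 were lower. At least 1.5-fold higher were 2 genes (7.69%), Mvk and Stard4, against 6.94% of all genes.

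Fibroblast markers and the genes of a chromosome were read beside this pattern. Thy1, a surface protein of fibroblasts that other cells also express, read 8.77, 6.87 and 7.38 on days 0, 2 and 5 in clone 5 and 5.83, 5.09 and 7.61 in clone 7, highest in clone 5 on day 0 as the desaturase genes were. Twist1 was also lower in clone 7 on day 0 but went the other way over all days. Its mean of clone 7 minus clone 5 was 0.33, beside -1.50 for Thy1. Linear levels were also summed over all 10 fibroblast markers, of which 2 were measured, so the sums include undetected probes. The sums were 639 and 251 in clone 5 and clone 7 on day 0, 310 and 230 on day 2, and 357 and 449 on day 5. On days 0 and 2, Thy1 alone made up nearly all of the difference between the clones in these sums. The part of these markers in the result was not tested. Of the 10, 5 were detected on 0 arrays, as given above, and the other 5 on at least 1 array. The summed level of the 11 pluripotent stem cell markers ranged from 38544 to 39263 on day 0, from 41587 to 43513 on day 2 and from 37329 to 40091 on day 5.

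Chromosome 1 carries Hsd17b7 and Insig2. The 518 tested genes on it were lower in clone 7 on every day, with median log2 differences of -0.30, -0.37 and -0.37 on days 0, 2 and 5, beside 0.00, 0.02 and 0.03 for genes elsewhere. Hsd17b7 (-0.84, -0.68 and -0.76) and Insig2 (-0.42, -0.48 and -0.48) kept their clone difference through day 5. Over the 24 other genes the day 0 pattern was as large, with 21 lower in clone 7, a median of -0.59, and 12 at least 1.5-fold lower.

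With all days in the fit, the mean difference between clone 7 and clone 5 passed for 0 of 26 genes, against 0% of all genes. At an unadjusted p under 0.05 it was 7 of the 26 genes and 1356 of all genes (11.3%). Of 26 mean differences, 21 lay below 0 (against 47.8% of all genes), with a median of -0.27, or -0.12 without either day 0 array. The largest were -0.85 ± 0.24 for Dhcr7 (SE, adjusted p = 0.263) and -0.76 ± 0.14 for Hsd17b7 (adjusted p = 0.138). This fit assumes an equal clone difference on each day, which the daily values above do not show.

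Day 2 and day 5 were set against the day before. On day 2 against day 0, 0 of 26 genes passed, against 0% of all genes, while 1 gene (Ebp) and 1629 of all genes (13.5%) had an unadjusted p under 0.05. Of the 26 changes, 17 lay below 0, against 48.2% of all genes. The median of the 26 was -0.14, and it became 0.15 without the day 0 array of clone 5 and -0.36 without that of clone 7. On day 5 against day 2, 0 of 26 genes passed, against 0.79% of all genes. An unadjusted p under 0.05 was reached by 6 genes of the set and 2150 of all genes (17.9%). Those 6 are Sqle, Cyp51, Msmo1, Hsd17b7, Dhcr7 and Acss2, with log2 changes from 0.51 to 1.04 and adjusted p from 0.105 to 0.191.

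The direction from day 2 to day 5 was shared by more of the set. Of the 26 changes, 21 lay above 0, against 47.2% of all genes. The median of the 26 was 0.27 on the log2 scale, beside -0.02 for all genes. The median was 0.61 without the day 5 array of clone 5 and 0.070 without that of clone 7. Both day 5 arrays lay above both day 2 arrays in 11 genes (42.3%), against 21.7% of all genes, and below them in 0, against 25%. The 11 genes were Mvd, Fdps, Sqle, Cyp51, Msmo1, Nsdhl, Dhcr7, Stard4, Fasn, Scd1 and Scd2. The count that passed went from 0 to 4 (Cyp51, Dhcr7, Fdps and Scd1) when the day 5 array of clone 5 was left out, and that over all genes from 95 to 518. Against day 0 the set fell short of all genes. Both day 5 arrays lay above both day 0 arrays in 4 genes (15.4%), against 25.1% of all, and below them in 2 (7.69%), against 23.6%. Both day 2 arrays lay above both day 0 arrays in 0 genes, against 23.4%, and below them in 3 (11.5%), against 19.5%.

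Other genes of the pathway were read from lists by role. On day 2 against day 0, 0 genes of any of these lists passed. On day 5 against day 0 the counts of 1 gene in a list stand beside 2.45% of all genes called higher and 1.78% called lower. Of 5 measured genes of other sterol and isoprenoid steps, 1 rose on day 5 against day 0. Nus1, which encodes a subunit of the enzyme that makes dolichol precursors, read 7.78, 8.37 and 8.63 on days 0, 2 and 5 in clone 5 and 7.94, 8.46 and 8.97 in clone 7. It was higher on each later day in both clones, and both day 5 arrays lay above the other 4. Its log2 change was 0.94 ± 0.17 (1.92-fold, SE, adjusted p = 0.0307). Dhdds, which encodes the partner subunit of the same enzyme, had the next largest change at -0.25 ± 0.22 and did not pass (adjusted p = 0.568).

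Of 11 measured uptake, storage and transport genes 1 rose, Vldlr, a receptor of the LDL receptor family, which read 6.16, 5.90 and 7.26 in clone 5 and 5.83, 5.32 and 7.25 in clone 7. It was highest on day 5 in both clones, with a log2 change of 1.26 ± 0.19 against day 0 (2.40-fold, SE, adjusted p = 0.0217) and 1.65 ± 0.19 against day 2 (adjusted p = 0.0253). Its 2 other detected probes gave 1.25 and 1.33 against day 0. Lrp8, of the same receptor family, had a change of 1.14 ± 0.29 that did not pass (adjusted p = 0.0804), and a dimmer probe gave -0.18.

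Of 16 measured genes of fatty acid activation and glycerolipid assembly 1 rose. Dgat2, which encodes an enzyme of the last step of triglyceride synthesis, read 5.50, 6.09 and 7.47 in clone 5 and 4.77, 5.12 and 7.25 in clone 7. It was higher on each later day in both clones, with a log2 change of 2.22 ± 0.22 on day 5 against day 0 (4.67-fold, SE, adjusted p = 0.00768) and 1.76 ± 0.22 against day 2 (adjusted p = 0.0260). Lpin2, a phosphatidate phosphatase gene, had the next largest change at 0.46 and did not pass (adjusted p = 0.207).

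The list of SREBP processing has 9 measured genes. It also holds Nfya, Nfyb, Nfyc and Sp1, which encode promoter-binding transcription factors and not processing proteins. Of the 9 genes 0 passed on day 5 against day 0, and 3 changes lay above 0. Erlin1, which encodes a membrane protein of the endoplasmic reticulum, read 7.52, 7.35 and 8.30 in clone 5 and 7.37, 7.25 and 7.86 in clone 7. Both day 5 arrays lay above the other 4, with a log2 change of 0.64 ± 0.18 (SE, adjusted p = 0.0985). Mbtps1, which encodes the protease that makes the first cut in SREBPs, had a change of -0.48 ± 0.24 (adjusted p = 0.298).

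Of 11 measured genes of fatty acid oxidation 1 fell and 9 changes lay below 0, beside 1.78% of all genes called lower and 49.9% below 0. Slc25a20, which encodes the carnitine carrier of the inner mitochondrial membrane, read 10.37, 10.18 and 9.60 in clone 5 and 11.29, 10.52 and 9.83 in clone 7. It was lower on each later day in both clones, with a log2 change of -1.11 ± 0.21 (SE, adjusted p = 0.0363) and -1.31 on a second probe. Acaa2, a mitochondrial thiolase gene, had a change of -1.20 ± 0.26 that did not pass (adjusted p = 0.0517).

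Of 13 measured genes of other fatty acid synthesis and desaturation steps 0 passed. The largest changes were 0.53 for Mid1ip1, which encodes an activator of acetyl-CoA carboxylase, and -0.49 for the elongase gene Elovl1. Of the 2 measured genes of the LXR sterol efflux route 0 passed, with -1.10 for Apoe, the apolipoprotein E gene (adjusted p = 0.104), and -0.10 for Nr1h2, which encodes a sterol-activated nuclear receptor. Without clone in the model, the day 5 against day 0 calls of Nus1, Vldlr and Slc25a20 were lost (adjusted p from 0.0502 to 0.126), and Dgat2 passed against day 0 (adjusted p = 0.0383) but not against day 2 (adjusted p = 0.123). Vldlr against day 2 was lost too (adjusted p = 0.0711). The call of Dgat2 against day 0 held with any 1 array left out, while the other 3 calls against day 0 were each lost without the day 0 array of clone 7, and each also without the day 5 array of clone 7.

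**Figure D4:**
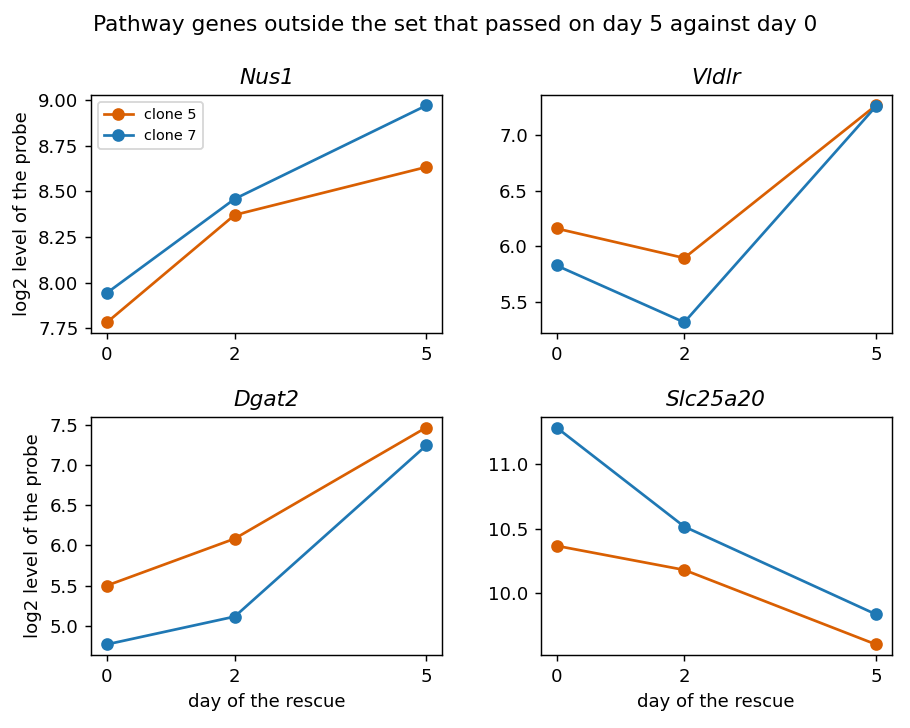
Log2 level of the probe (y axis) on days 0, 2 and 5 of the rescue (x axis) for the 4 other lipid pathway genes described above that passed on day 5 against day 0, with 1 array per point and 1 line per clone. Each y axis has its own range. Dgat2 ends at 7.47 and 7.25, and Slc25a20 goes down in both clones.

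The clone gap of day 0 was smaller in these lists. The median of clone 7 minus clone 5 on day 0 was -0.03 in the other sterol synthesis genes and -0.14 in uptake and transport. It was 0.10 in the list of SREBP processing, which includes the transcription factors named above. It was -0.17 in other fatty acid synthesis, -0.11 in glycerolipid assembly and -0.00 in oxidation, beside -0.59 in the set. No test of the difference between lists was made.

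The authors' deposited table of fold changes lists 698 probes, each with an absolute log2 fold change of at least 1 between day averages, and 0 of the 31 genes are in the authors' deposited table.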

How the data were processed

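Illumina mouse bead arrays of 6 samples were analysed. The deposited probe table holds average bead intensity without normalisation, and a detection p-value for each probe, per the file headers. The authors also deposited series values as log2 after subtracting background and normalising, and the deposited fold change table holds log2 values and p-values of the authors' own comparison. The sources used here do not name the software.

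Intensities were corrected with normexp from the detection p-values (offset 16), quantile normalised and log2 transformed in limma 3.58.1 (R 4.3.3). Of 45281 probes, 17471 were detected as defined above and kept, and each of 12030 genes was read from its brightest probe on average. Symbols were matched through synonyms to RefSeq names of GRCm38.p6, which also gave chromosomes and promoters. Day and clone were the terms of a linear model of all 6 arrays (lmFit, eBayes, 2 residual and 5.24 prior degrees of freedom). P-values were adjusted by Benjamini-Hochberg over all genes, with 0.05 to pass, and the procedure was tested on simulated data. Clone was the replicate block, because each number is the same cell line on every day. Deviations from the day means correlated across genes at 0.36 (days 0 and 2), -0.07 (days 0 and 5) and 0.34 (days 2 and 5). Alternatives were no block, other background, scaling, probe, detection and shrinkage choices, the series values, and leaving out each array. Precision is limited by the number of arrays.

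The genes and the lists were chosen with earlier results of these data known. All measured genes of the set are described, and of each other list the genes that pass and up to 2 with the largest mean change on day 5. Per-array values are given for genes that pass, for those with the largest and smallest changes of a role, and for others chosen after their values were seen. A planned comparison of protein sequences was not made, and proteins are not used here. Some genes of the pathway lists are not reported here.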

Additional observations from a re-analysis of the deposited data

Results flagged for a closer look

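The change from day 0 to day 5 was higher in clone 7 and lower in clone 5, each by at least 0.25 on the log2 scale, for 9 genes. That limit was chosen after the values were seen. Acat2, Tm7sf2, Srebf2 and Fasn had the same signs with a smaller change in a clone, and Scap and Elovl6 had the reverse signs. The values for the 9 genes are the log2 change in clone 7 minus that in clone 5. Among the mevalonate genes the difference was 0.997 for Mvk, 1.30 for Pmvk, 1.10 for Mvd and 1.67 for Fdps. Among the ring genes it was 0.788 for Lss and 0.759 for Nsdhl. It was 1.66 for the sterol carrier gene Stard4, 1.62 for Scd1 and 1.77 for Scd2. These differences were not tested, since each clone had 1 array per day.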

How the results depend on the processing

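The 2 genes that passed on day 5 against day 0 kept their direction under all 16 alternatives, but Hsd17b7 did not pass in 10 and Ebp in 11. Over all 16 the adjusted p ranged from 0.0209 to 0.261 for Hsd17b7 and from 0.0334 to 0.167 for Ebp. The count fell from 2 to 0 without the replicate block, with the series values and without the detection filter. It was 1 without background correction (Hsd17b7), with median scaling (Hsd17b7) and with the mean of probes (Ebp). Leaving out each array in turn gave 0 to 2 genes. Stard4 passed without day 0 of clone 5, and Cyp51 and Dhcr7 without day 5 of clone 5. These fits have 1 residual degree of freedom, and for the other alternatives the cause was not tested. For day 5 against day 2 the count was 0 to 4 with an array left out, and for clone 7 against clone 5 it was 0 to 1, Dhcr7 without either day 5 array. The median change with an array left out was -0.36 to 0.15 for day 2 against day 0, -0.10 to 0.42 for day 5 against day 0, 0.070 to 0.61 for day 5 against day 2 and -0.48 to -0.12 between clones, so the medians of the first 2 comparisons changed sign. Of the 4 other pathway genes described that passed on day 5 against day 0, Dgat2 did not pass in 2 of 15 alternatives, Vldlr in 7 of 16, and Nus1 and Slc25a20 in 8 of 16, all with the direction kept.

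Over all genes on day 5 against day 0, the count of 509 became 208 without the replicate block, 127 without background correction and 301 with detection p under 0.01 on all 6 arrays. It was 0 with the series values and without the detection filter in limma, where 2094 and 3744 genes had an unadjusted p under 0.05. It was 134 without day 0 of clone 7 and 261 without day 5 of clone 7. On day 5 against day 2, the count of 95 ranged from 0 to 518, and was 13 without the replicate block.

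The counts at 1.5-fold were chosen after seeing the data. On day 0, 10 to 17 genes were at least 1.5-fold lower in clone 7 over 7 alternatives, beside 13. On day 2 the 5 genes became 0 without background correction. On day 5 the 1 gene became 4 with median scaling and 3 with the series values. Under median scaling the median of all genes was 0.11 for clone 5 from day 0 to day 5 and -0.12 for the day 5 clone difference, beside -0.07 and -0.18 for the set.

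Of 1626 values of single genes of the set under the alternatives, 1504 kept direction and call, 92 that had not passed changed sign, 9 passed newly and 21 no longer passed.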
